A study of Arabidopsis thaliana with 6 samples.

Results

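The 9 genes described here are 8 nuclear genes of the plant response to failing mitochondria, namely AOX1A, NDB2, NDA1, UPOX, BCS1, HSP23.5, ANAC013 and ANAC017, together with OXS3 (oxidative stress 3). They were picked out by locus from the 32678 genes of a read count table of Arabidopsis thaliana root meristems. Membership was chosen with earlier results of the same comparison known, and OXS3 was selected on its high difference between the genotypes, so the genotype differences of all 9 genes are given as descriptions without a test.

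Plant mitochondria signal their state to the nucleus, a process called mitochondrial retrograde signalling. ANAC017 and ANAC013 are NAC family transcription factors held in the endoplasmic reticulum membrane. When mitochondrial respiration is disturbed they are cut free, move to the nucleus and activate a set of genes called the mitochondrial dysfunction stimulon. Among its products are the alternative oxidase AOX1A and the alternative NAD(P)H dehydrogenases, which let electrons bypass the proton-pumping complexes of the respiratory chain, and small mitochondrial proteins such as UPOX and HSP23.5. OXS3 is a nuclear protein known for tolerance of Arabidopsis to cadmium and oxidising chemicals, and it is not a classical member of that stimulon.

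RNA was sequenced from root meristems of 5-day-old seedlings of 2 genotypes, with 3 libraries each. Wild type was the Col0 accession. The double mutant papl1-1papl2, also labelled cog1-6cdf4, carries mutant alleles of the PINEAPPLE genes, a pair of Dof transcription factors, and is called papl1 papl2 below. All seedlings were grown on plates with 0.5x MS salts, 1% agar and 1% sucrose at 23 °C in long days, and their meristems were cut out by hand. The number of roots in a library, and whether libraries came from separate plantings, are not given in the sources used here, so errors and p-values measure the spread between these libraries, which may be partly technical. The 3 libraries of each genotype were, per the labels' protocols, the best ones by RNA quality.

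The libraries held 17849704 to 20914576 counts, and 17720 genes had enough counts to be tested, all 9 members among them. A count of 3 in a library, the smallest level taken as detected, corresponded to 0.143 to 0.168 CPM (counts of a gene scaled to library size, with the TMM correction for library composition), and such limits cover counting error only. Replicate 3 labelled papl1 papl2 stood apart: the second principal component of all tested genes, with 30.7% of the variance, placed it at 34.2, while replicates 1 and 2 of that label lay at -28.0 and -17.7. Transcripts of the loci AT1G29160 (COG1) and AT2G34140 (CDF4) were not lower in the mutant: AT1G29160 was at 12.6, 10.9 and 11.0 CPM in wild type and at 21.8, 20.2 and 16.5 CPM in papl1 papl2, which is 0.76 on the log2 scale (SE 0.12, adjusted p = 0.0137 by edgeR's quasi-likelihood test). AT2G34140 had a log2 fold change of 0.57 (SE 0.15, adjusted p = 0.0952 by the same edgeR test). Counts over a whole locus do not show whether an allele is functional, so the genotype of each library below is the one on its label. The meristem and stem cell niche genes PLT1, PLT2, WOX5, SCR, SHR and CYCB1-1 together made up 212 to 228 CPM in every library, and 0 of these 6 genes passed the test.

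The short promoter sequence most closely tied to this response is the mitochondrial dysfunction motif, which NAC factors of the ANAC017 and ANAC013 kind bind. It was searched as CTTGNNNNNCAAG or CTTGNNNNNCACG, on both strands, in the 250 bases before the annotated start of each gene (RefSeq annotation of TAIR10.1). The windows of the 8 members other than OXS3 were looked at, and the motif was found in 5 of them and in 1.20% of 27443 genes. The motif was first described from genes of this stimulon, so its presence is no independent finding, and the absence of these letters from a window says nothing about a factor. The sites are printed on the strand of the gene, with 8 bases on either side and the motif in capitals. They are shown because NAC factors of the response are known to act through this motif, while binding at these 5 sites was not tested:
NDB2: cgatctggCTTGGCCACCAAGattgtttg
NDA1: tgtcgtttCTTGCGCATCAAGttctgctg
UPOX: tttagtaaCTTGCTCTCCAAGgagatcta
HSP23.5: ttattttaCTTGGAGACCACGcagttcta
ANAC017: acctctgtCGTGTCAGACAAGaatgttgg
On TAIR10.1 the motifs lie at chr4:2572348-2572360 for NDB2, chr1:2204034-2204046 for NDA1, chr2:9254327-9254339 for UPOX, chr5:20891053-20891065 for HSP23.5 and chr1:12451295-12451307 for ANAC017, all 5 genes being on the plus strand. The site of ANAC017 reads on the opposite strand. The far end of the motif was 51 bases upstream of the annotated start in UPOX, 70 in NDA1, 79 in NDB2 and 110 in both HSP23.5 and ANAC017.

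The windows of AOX1A, the best-known gene of the response, and of BCS1 and UPOX, the genes furthest above wild type in papl1 papl2 among these 8, are printed whole, 5′ to 3′ on the strand of the gene. Capitals mark the mitochondrial dysfunction motif, the W-box core TTGAC read by WRKY factors and the G-box CACGTG read by bZIP and bHLH factors, each on either strand:
AOX1A: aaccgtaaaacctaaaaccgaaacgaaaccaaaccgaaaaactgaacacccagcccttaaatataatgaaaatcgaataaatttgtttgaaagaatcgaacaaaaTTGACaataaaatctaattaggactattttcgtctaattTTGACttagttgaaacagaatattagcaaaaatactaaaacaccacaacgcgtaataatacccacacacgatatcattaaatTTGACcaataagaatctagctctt
BCS1: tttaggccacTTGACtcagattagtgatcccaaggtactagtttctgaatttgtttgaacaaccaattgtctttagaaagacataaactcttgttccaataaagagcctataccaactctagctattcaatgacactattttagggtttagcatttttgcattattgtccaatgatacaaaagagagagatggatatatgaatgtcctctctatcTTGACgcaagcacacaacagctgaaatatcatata
UPOX: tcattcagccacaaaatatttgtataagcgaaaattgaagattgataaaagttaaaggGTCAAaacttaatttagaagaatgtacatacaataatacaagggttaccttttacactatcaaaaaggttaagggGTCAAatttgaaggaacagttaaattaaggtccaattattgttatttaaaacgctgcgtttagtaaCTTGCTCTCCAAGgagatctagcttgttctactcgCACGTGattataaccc
These windows are chr3:7906271-7906520 (plus strand) for AOX1A, chr3:18929276-18929525 (plus strand) for BCS1 and chr2:9254128-9254377 (plus strand) for UPOX, on TAIR10.1. The W-box core occurred 3 times in the window of AOX1A and 2 times in those of BCS1 and UPOX, and it was present in 4 of the 8 windows, NDB2 being the fourth gene, and in 44.9% of all windows. UPOX alone of the 8 held a G-box, which 6.49% of all windows had. The heat shock element core GAANNTTC, read by heat shock factors and present in 9.55% of all windows, was in 0 of the 8 windows, that of the small heat shock protein gene HSP23.5 included.

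Across the members the genotypes differed by widely unequal amounts. OXS3 stood 10.9-fold higher in papl1 papl2 than in wild type and BCS1 1.67-fold higher, while the other 7 genes differed by at most 1.50-fold in either direction. The median log2 fold change was 0.17 over the 9 members, 5 of them positive and 4 negative, and 0.00 over all tested genes. In 5 of the 9, no library of one genotype overlapped the other; papl1 papl2 was above in 4 and wild type in 1, and 21.5% of all tested genes were separated in this way.

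**Figure D1:**
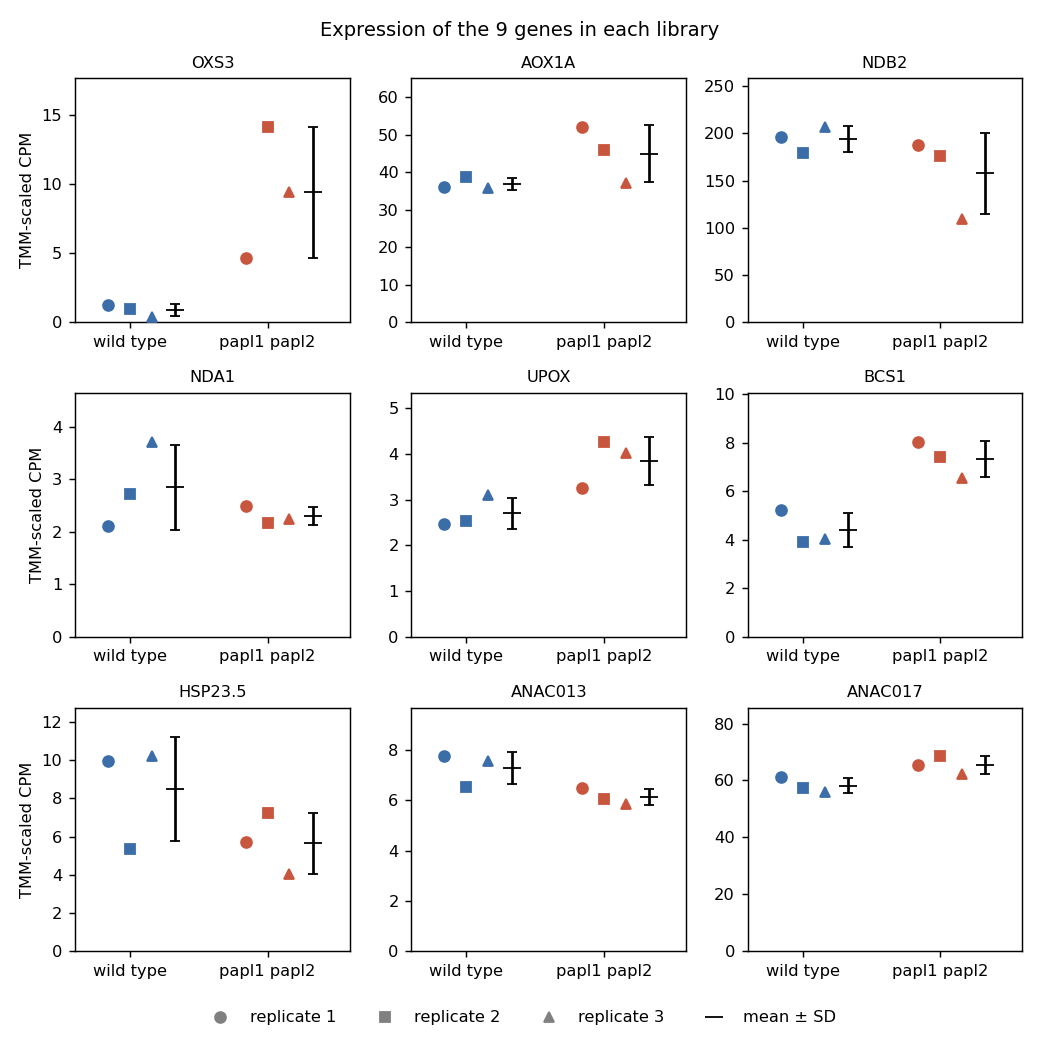
TMM-scaled CPM (vertical axes, starting at 0, a different range in each panel) of each of the 9 genes in the 3 wild type libraries (blue) and the 3 papl1 papl2 libraries (red), with the mean ± SD of each genotype in black. OXS3 was at 0.381 to 1.26 CPM in wild type and at 4.64 to 14.1 CPM in papl1 papl2, while AOX1A, NDB2, NDA1 and HSP23.5 overlapped between the genotypes.

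The alternative oxidase gene AOX1A (AT3G22370, chr3:7906521-7908746, plus strand) encodes the enzyme that passes electrons from ubiquinol straight to oxygen. It was at 36.1, 38.8 and 35.7 CPM in wild type replicates 1 to 3 and at 52.0, 45.8 and 37.0 CPM in papl1 papl2 replicates 1 to 3. The wild type libraries lay close together, papl1 papl2 replicates 1 and 2 lay above all of them, and replicate 3 fell inside the wild type range. AOX1A differed by a log2 fold change of 0.29 (SE 0.11), with 44.9 ± 7.52 CPM in papl1 papl2 against 36.9 ± 1.69 CPM in wild type (SD, n = 3 each). It depended on the mutant library left out: it was 0.41 without replicate 3 and 0.17 without replicate 1. AOX1A rested on 663 to 1087 counts per library.

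NDB2 (AT4G05020, chr4:2572427-2576599, plus strand), an NAD(P)H dehydrogenase on the outer face of the inner mitochondrial membrane that is known to be induced together with AOX1A, had a lower mean in papl1 papl2 than in wild type. Its levels were 197, 179 and 207 CPM in wild type and 188, 176 and 109 CPM in papl1 papl2. Replicate 3 of papl1 papl2 was the lowest of the 6 libraries, and the other mutant libraries lay within or just below the wild type range. The log2 fold change of -0.30 (SE 0.17) became -0.10 when replicate 3 of papl1 papl2 was left out. In that library NDB2 was at 0.598 times, and AOX1A at 0.757 times, the mean of the other papl1 papl2 libraries.

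NDA1 (AT1G07180, chr1:2204104-2207099, plus strand), an NAD(P)H dehydrogenase on the inner face of the same membrane, was the member with the second-lowest level per kilobase in wild type. It was at 2.11, 2.73 and 3.72 CPM in wild type and at 2.49, 2.16 and 2.23 CPM in papl1 papl2, from 39 to 78 counts per library. The mutant libraries lay together inside the wild type range. Its log2 fold change was -0.31 (SE 0.24), and -0.08 without wild type replicate 3, the highest library.

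UPOX (AT2G21640, chr2:9254378-9255743, plus strand) encodes a small mitochondrial protein used as a marker of oxidative stress. It was at 2.48, 2.53 and 3.10 CPM in wild type and at 3.25, 4.27 and 4.02 CPM in papl1 papl2. All mutant libraries were above all wild type libraries, with a gap between 3.10 and 3.25 CPM that is small beside the spread within either genotype. UPOX differed by 0.50 on the log2 scale (SE 0.19), from 47 to 77 counts per library.

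BCS1 (AT3G50930, chr3:18929526-18932181, plus strand), also called OM66, encodes an AAA-type ATPase of the outer mitochondrial membrane whose transcript is a usual marker of mitochondrial and pathogen stress. It was at 5.22, 3.92 and 4.05 CPM in wild type and at 8.04, 7.43 and 6.54 CPM in papl1 papl2. The genotypes did not overlap, and the lowest mutant library was above the highest wild type library by more than the SD of 0.715 CPM in wild type and 0.755 CPM in papl1 papl2. BCS1 differed by 0.74 on the log2 scale (SE 0.16), from 79 to 168 counts per library, and it was 0.82 without replicate 3 of papl1 papl2. The neighbouring gene of the same ATPase superfamily, AT3G50940, had 0 counts in every library.

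HSP23.5 (AT5G51440, chr5:20891163-20892416, plus strand) encodes a small heat shock protein of the mitochondrial matrix. It was at 9.96, 5.36 and 10.2 CPM in wild type and at 5.74, 7.21 and 4.02 CPM in papl1 papl2. Both genotypes were spread out, by 1.90-fold in wild type and 1.79-fold in papl1 papl2, and they overlapped. The log2 fold change of -0.59 (SE 0.27) was the lowest of the 9 and ranged from -0.84 to -0.40 as single libraries were left out.

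ANAC017 (AT1G34190, chr1:12451405-12454542, plus strand), the membrane-bound regulator of the response, had the smallest spread within genotypes of the 9 when both genotypes are pooled. It was at 61.2, 57.4 and 56.1 CPM in wild type and at 65.3, 68.5 and 62.2 CPM in papl1 papl2. The genotypes did not overlap, with the mutant libraries above, but the difference was small, with a log2 fold change of 0.17 (SE 0.06) from 1113 to 1365 counts per library.

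ANAC013 (AT1G32870, chr1:11911631-11913947, plus strand), which is both a regulator and a target gene of the response, lay the other way. It was at 7.75, 6.55 and 7.57 CPM in wild type and at 6.51, 6.04 and 5.87 CPM in papl1 papl2. Wild type was above papl1 papl2 in all libraries, though the lowest wild type and the highest mutant library were nearly level. The log2 fold change was -0.25 (SE 0.13). ANAC013 overlaps AT1G32880 on the opposite strand; without known strand, reads of the overlap cannot be assigned to one of these genes, and AT1G32880 itself had at most 3 counts.

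OXS3 (AT5G56550, chr5:22895616-22896734, minus strand) had the lowest wild type level of the 9 genes per kilobase of exon, and it was rank 12 from the top of all 17720 tested genes by log2 fold change. Its levels were 1.26, 0.942 and 0.381 CPM in wild type, from 24, 19 and 8 counts, and at 4.64, 14.1 and 9.44 CPM in papl1 papl2, from 97, 255 and 169 counts. Every mutant library was above every wild type library, and the spread within a genotype was the widest of the 9 genes, 3.32-fold in wild type and 3.05-fold in papl1 papl2. On the log2 scale the mutant exceeded wild type by 3.45 (SE 0.48), with 9.41 ± 4.75 CPM in papl1 papl2 against 0.863 ± 0.447 CPM in wild type (SD, n = 3 each). It stayed between 3.03 and 3.82 as single libraries were left out, and it was 3.43 without replicate 3 of papl1 papl2. In bulk samples, more transcript per cell and more cells that make it cannot be told apart.

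**Figure D2:**
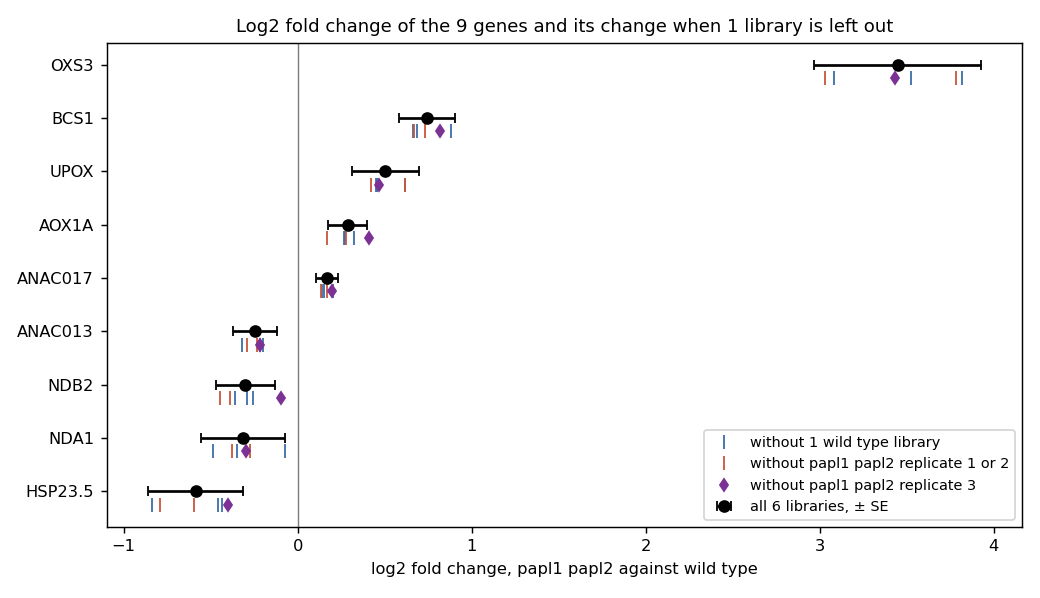
Log2 fold change of papl1 papl2 against wild type (horizontal axis) of the 9 genes, with black points and bars for the estimate ± SE from all 6 libraries and marks below for the fits that leave out 1 library (blue for a wild type library, red for papl1 papl2 replicate 1 or 2, purple for papl1 papl2 replicate 3). NDB2 moved from -0.30 to -0.10 and AOX1A from 0.29 to 0.41 without papl1 papl2 replicate 3, and all estimates of OXS3 lay between 3.03 and 3.82.

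Levels can be compared between genes only per length, here as TMM-scaled CPM per kilobase of annotated exon. In wild type the order of levels was NDB2, ANAC017, AOX1A, HSP23.5, ANAC013, UPOX, BCS1, NDA1 and OXS3, from 75.8 ± 5.36 for NDB2 to 0.879 ± 0.455 for OXS3 (SD, n = 3). The libraries of some neighbours in that order overlapped, namely ANAC017 with AOX1A, ANAC013 with UPOX, BCS1 with NDA1 and NDA1 with OXS3. Among 17678 tested genes with a known length, the wild type level of NDB2 was at percentile 91.2, those of ANAC017 and AOX1A at 71.7 and 70.4, and that of OXS3 at 7.97. NDA1, which takes part in the same bypass of the respiratory chain as NDB2, was at percentile 12.0. In papl1 papl2, OXS3 was the fourth of the 9 by mean, at 9.58 ± 4.84 CPM per kilobase, behind NDB2, AOX1A and ANAC017. Its libraries, at 4.73 to 14.4, overlapped those of the next genes in that order, UPOX at 4.43 to 5.81 and HSP23.5 at 3.61 to 6.46.

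The gene models gave little room for reads shared with other genes. None of the exon stretches of 50 bases in any of the 9 genes occurred a second time in the nuclear chromosomes of TAIR10.1. AOX1B, the closest neighbour of AOX1A at 944 bases upstream, had at most 1 count in any library. ANAC016, a NAC gene of the same family, ends 117 bases before ANAC017 on the same strand, and its own values are given below. Exon length ran from 735 bases in UPOX to 2656 bases in BCS1, which has a single exon.

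Replicate 3 of papl1 papl2 was the lowest library of its label for 6 of the 9 genes and the highest for 0. Over all tested genes it was the lowest in 38.1% and the highest in 38.8%. Other measures moved with it. The summed CPM of 6 root hair genes (RHD6, RSL4, EXPA7, EXPA18, COBL9 and PRP3) was 36.5, 38.4 and 42.4 in wild type and 49.5, 42.0 and 24.7 in papl1 papl2, with PRP3, EXPA7 and EXPA18 at 0 in some libraries and 0 of 5 tested genes past the test. RHD6 made up most of this sum, at 31.2, 33.3 and 37.5 CPM in wild type and 34.4, 30.8 and 24.3 CPM in papl1 papl2. In papl1 papl2, RSL4 was at 4.16, 3.22 and 0.279 CPM and COBL9 at 7.89, 4.66 and 0.168 CPM. In wild type, RSL4 was at 0.738, 0.595 and 0.429 CPM and COBL9 at 4.32, 2.38 and 4.43 CPM. Reads of the mitochondrial genome, which poly-A selection captures poorly, made up 0.00735%, 0.00667% and 0.00456% of counts in wild type and 0.0154%, 0.0112% and 0.00507% in papl1 papl2. In papl1 papl2 both measures shared the order of replicates with AOX1A and NDB2, highest in replicate 1 and lowest in replicate 3. BCS1, ANAC013 and the sum of endodermis and maturing xylem genes given next had that order too. The root cap sum had the reverse order. The part of these measures in the values of the members was not tested. The sum of 5 endodermis and maturing xylem genes was 11.1, 12.2 and 11.1 CPM in wild type and 20.1, 17.0 and 13.1 CPM in papl1 papl2. Of these, 1 of 3 tested genes passed: MYB36, a regulator of endodermal differentiation, rose with a log2 fold change of 1.15 (adjusted p = 0.00961, edgeR). IRX3 was at 0.24 (adjusted p = 0.518, edgeR) and XCP1 at 0.17 (adjusted p = 0.838, edgeR), and CASP1 and CASP2 had at most 12 counts. The sum of the root cap genes FEZ, SMB, BRN1 and BRN2 was 74.7, 76.9 and 80.1 CPM in wild type and 59.2, 64.5 and 77.1 CPM in papl1 papl2, with 0 of 4 past the test. Whether any of these sums bears on OXS3, BCS1 or the other members was not tested.

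**Figure D3:**
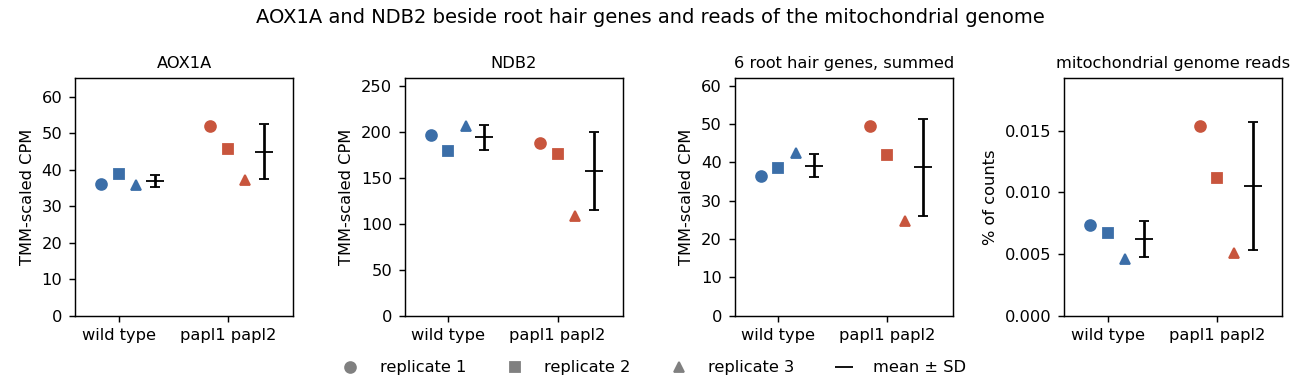
AOX1A and NDB2 (TMM-scaled CPM), the summed TMM-scaled CPM of 6 root hair genes, and the percentage of counts from the mitochondrial genome, for each library (blue, wild type; red, papl1 papl2) with the mean ± SD of each genotype in black. In papl1 papl2 all 4 measures, and also BCS1 and ANAC013, were highest in replicate 1 and lowest in replicate 3. In wild type the 4 measures had different orders.

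Other genes of mitochondrial stress and respiration were taken from 8 lists drawn from general knowledge of the pathway. The lists were made with earlier results of these data known. Their counts of called genes therefore describe the lists and are no independent evidence about the pathway. Of 83 listed genes that are not members, 70 were tested. By edgeR's quasi-likelihood test, called at an adjusted p under 0.05 over all 17720 tested genes, 8 of the 70 rose in papl1 papl2, 0 fell and 62 did not pass. Of all tested genes, 2.76% were called in either direction, 2.23% higher and 0.525% lower, and the counts of the single lists below stand beside the same shares. The median log2 fold change of the 70 was -0.03, with 26 positive and 44 negative, beside 0.00 over all tested genes. All 8 were called again without replicate 3 of papl1 papl2, where 6 further genes passed: AT5G14730, SOT12, DIC1 and UGT74E2, which were higher, and CPN10 and mtHSC70-2, which were lower.

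Among 10 tested regulators of retrograde signalling other than the members, 4 rose. WRKY40, a WRKY factor that acts in mitochondrial, chloroplast and defence signalling, was at 1.48, 0.942 and 0.857 CPM in wild type and at 5.79, 7.15 and 9.78 CPM in papl1 papl2. The genotypes were far apart, with a log2 fold change of 2.79 (SE 0.28, adjusted p = 0.00193, edgeR). ANAC016, a NAC factor of the ANAC017 family and its upstream neighbour, was at 0.527, 0.446 and 0.524 CPM in wild type and at 2.15, 1.94 and 2.12 CPM in papl1 papl2. It rested on 9 to 45 counts, and its libraries lay close together within each genotype. Its log2 fold change was 2.04 (SE 0.27, adjusted p = 0.00599, edgeR), beside 0.17 for ANAC017. WRKY15, a WRKY factor linked to mitochondrial and salt stress responses, had a log2 fold change of 0.93 (SE 0.19, adjusted p = 0.0334, edgeR). ANAC102, a NAC factor of chloroplast and low-oxygen signalling, was at 105, 92.0 and 95.2 CPM in wild type and at 145, 179 and 129 CPM in papl1 papl2, or 0.63 higher on the log2 scale (SE 0.11, adjusted p = 0.0205, edgeR). The calls of WRKY15 and ANAC102 were lost as single libraries were left out, at adjusted p of up to 0.153 and 0.103 (edgeR). The median of the 10 was 0.19, and the others included RCD1, a nuclear protein that binds ANAC013 and ANAC017, at -0.02 (adjusted p = 0.917, edgeR).

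Of 11 tested further genes of the mitochondrial dysfunction stimulon, 2 rose and the median log2 fold change was 0.38, with 7 of 11 positive. AT2G32020, which encodes an acyl-CoA N-acyltransferase family protein, was at 4.74, 3.72 and 3.48 CPM in wild type and at 11.0, 10.9 and 8.83 CPM in papl1 papl2. The genotypes did not overlap, and the log2 fold change was 1.36 (SE 0.16, adjusted p = 0.00362, edgeR). AT4G01870, which encodes a TolB-like protein, was at 46.3, 43.4 and 38.5 CPM in wild type and at 67.1, 61.9 and 54.0 CPM in papl1 papl2. Its log2 fold change was 0.51 (SE 0.10, adjusted p = 0.0249, edgeR), and it missed the threshold in 5 of the 6 analyses of 5 libraries, at adjusted p of up to 0.114 (edgeR). Genes that did not pass included UGT74E2, an auxin glucosyltransferase, at 0.19 (adjusted p = 0.579, edgeR), SOT12, a sulfotransferase, at 0.38 (adjusted p = 0.0526, edgeR) and CYP81D8, a cytochrome P450, at 0.61 (adjusted p = 0.263, edgeR). UGT74E2 and SOT12 passed without replicate 3 of papl1 papl2, at 0.36 (adjusted p = 0.0193, edgeR) and 0.38 (adjusted p = 0.0447, edgeR). The other 4 of the 11 had negative values. Among them, AT2G04050, which encodes a MATE efflux family protein, was at -1.36 (adjusted p = 0.201, edgeR), from 2 to 17 counts. AT1G24095 was at -0.21 (adjusted p = 0.316, edgeR). In both genes every wild type library was above every papl1 papl2 library.

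Other genes of the bypass showed no call. AOX1C, the one further alternative oxidase with enough counts, was at -0.32 (adjusted p = 0.752, edgeR), and AOX1D had 0 counts in every library. The median of the 5 remaining type II NAD(P)H dehydrogenases was 0.02, and NDA2, the close relative of NDA1, was at 0.23 (adjusted p = 0.236, edgeR). NDB1, a further external dehydrogenase, was at 0.15 (adjusted p = 0.366, edgeR). NDB3, with 2 to 17 counts, and NDB4, with 10 to 28, were lower. They were at -0.69 (adjusted p = 0.579, edgeR) and -0.65 (adjusted p = 0.393, edgeR). Among 5 tested uncoupling and dicarboxylate carriers, DIC2, a dicarboxylate carrier of the inner mitochondrial membrane, rose. It was at 7.59, 6.74 and 7.67 CPM in wild type and at 14.1, 15.5 and 31.5 CPM in papl1 papl2. Replicate 3 of papl1 papl2 was the highest library here, unlike in AOX1A and NDB2, and the log2 fold change was 1.47 (SE 0.28, adjusted p = 0.0298, edgeR), or 1.00 without that library (adjusted p = 0.000596, edgeR). DIC2 missed the threshold in 4 of the 6 analyses of 5 libraries, at adjusted p of up to 0.156 (edgeR).

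The housekeeping side of the mitochondrion differed little. Over all 17720 tested genes, 2823 had an unadjusted p under 0.05 by the edgeR test. Of 18 genes of the phosphorylating respiratory chain, 0 passed the edgeR test and 1 had an unadjusted p under 0.05. Their log2 fold changes lay between -0.33 and 0.01, with a median of -0.04 and 17 of 18 negative. CYTC-2, a cytochrome c, was the lowest at -0.33 (adjusted p = 0.201, edgeR), and QCR7, a subunit of complex III, was at -0.14 (adjusted p = 0.316, edgeR). Of 13 mitochondrial chaperones and proteases, 0 passed and 1 had an unadjusted p under 0.05, with a median of -0.06 and 12 of 13 negative. HSP60, the matrix chaperonin, was at -0.10 (adjusted p = 0.404, edgeR). The matrix chaperone mtHSC70-2 was at -0.22 (adjusted p = 0.0690, edgeR) and passed under DESeq2 (adjusted p = 0.0135) and without replicate 3 of papl1 papl2 (adjusted p = 0.0363, edgeR). CPN10, the partner of HSP60, was at -0.24 without that library (adjusted p = 0.0366, edgeR).

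Of 7 tested genes of the oxidative stress response, ZAT12 rose. ZAT12, a zinc finger factor induced by many oxidative treatments, was at 1.11, 0.942 and 0.714 CPM in wild type and at 3.78, 5.21 and 8.04 CPM in papl1 papl2. That is a log2 fold change of 2.62 (SE 0.33, adjusted p = 0.00510, edgeR). The others, which are the catalases CAT1, CAT2 and CAT3, the ascorbate peroxidase APX1 and the glutathione transferases GSTU24 and GSTU25, had log2 fold changes between -0.17 and 0.22 and did not pass.

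**Figure D4:**
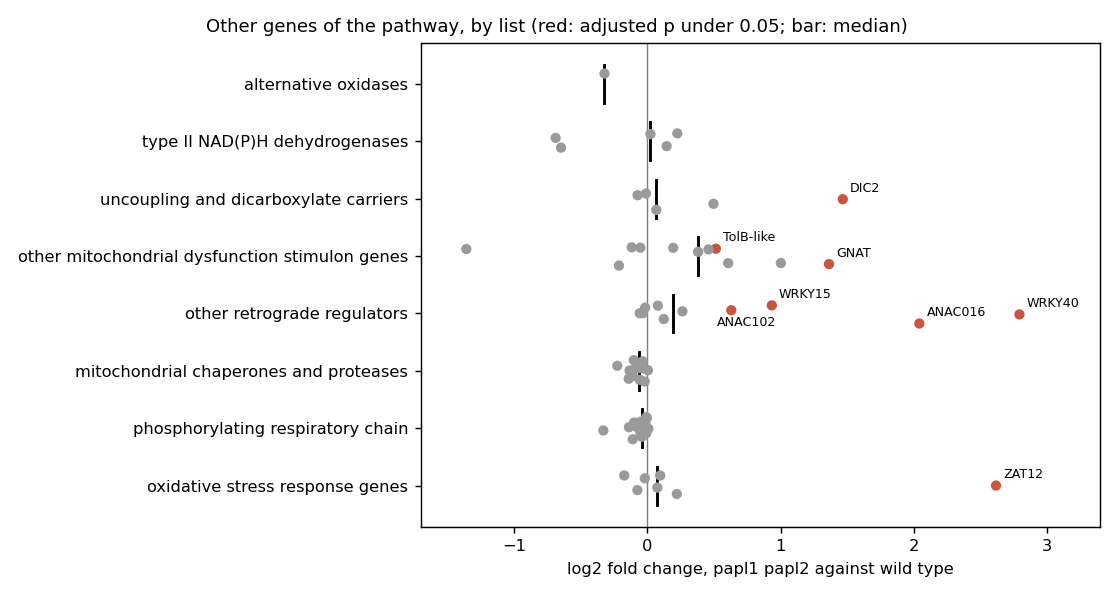
Log2 fold change of papl1 papl2 against wild type (horizontal axis) for the 70 tested genes of 8 lists, each point 1 gene, red where the edgeR adjusted p is under 0.05 and grey otherwise, with a black bar at the median of the list (points are spread vertically only to separate them). The 8 genes past the threshold were all higher in papl1 papl2, led by WRKY40 at 2.79, ZAT12 at 2.62 and ANAC016 at 2.04, while the phosphorylating chain stayed between -0.33 and 0.01.

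Genes with the mitochondrial dysfunction motif in the same promoter window were set beside the members. Apart from the members there were 323, of which 142 were tested. Of these, 4 rose, or 2.82%, beside 2.24% called higher among the tested genes without the motif, and their median log2 fold change was -0.03 beside 0.00. The called genes were AT1G76600 at 1.94 (adjusted p = 0.00275, edgeR), AT1G23710 at 1.59 (adjusted p = 0.00292, edgeR), ELF4, a component of the circadian clock, at 0.93 (adjusted p = 0.0478, edgeR) and AT5G65660 at 0.75 (adjusted p = 0.0338, edgeR). The 5 members with the motif had log2 fold changes of -0.59 in HSP23.5, -0.31 in NDA1, -0.30 in NDB2, 0.17 in ANAC017 and 0.50 in UPOX. BCS1, at 0.74, had no motif in the 250 bases searched, and sequence further upstream was not searched.

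The genes closest to OXS3 in pattern were found by the root mean square difference of log2 CPM, each gene centred on its own mean, over the 6 libraries and 16794 genes with a mean of at least 1 CPM. They share the libraries and the difference that chose OXS3, so no test is attached. The closest was AT5G21940, annotated as a hybrid signal transduction histidine kinase M-like protein, at a distance of 0.335. It was at 19.5, 10.5 and 4.57 CPM in wild type and at 69.5, 122 and 77.1 CPM in papl1 papl2. Like OXS3, it was highest in replicate 1 and lowest in replicate 3 of wild type, and highest in replicate 2 and lowest in replicate 1 of papl1 papl2. Next came AT4G29780, annotated as a nuclease, at 0.499, AT2G32150, a haloacid dehalogenase-like hydrolase, at 0.502, AT1G30730, a berberine bridge family oxidase, at 0.533, and WRKY30, a stress-responsive WRKY factor, at 0.550.

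**Figure D5:**
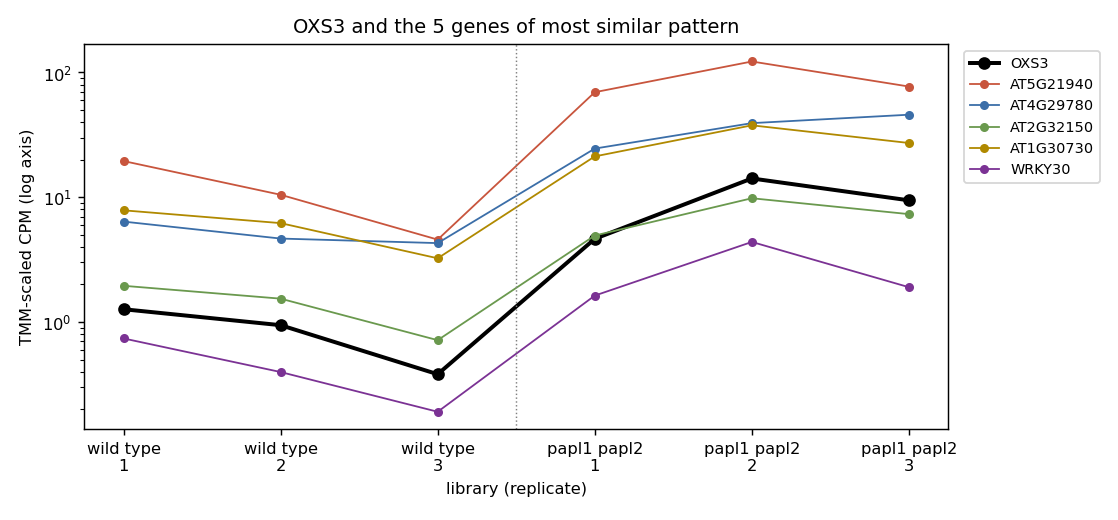
TMM-scaled CPM (log axis) in each of the 6 libraries for OXS3 (black) and the 5 genes of most similar pattern, with lines that only join the points of a gene. Each of the 6 genes was higher in all papl1 papl2 libraries than in all wild type libraries, and OXS3 was lowest in wild type replicate 3 at 0.381 CPM and highest in papl1 papl2 replicate 2 at 14.1 CPM.

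For AOX1A the same measure gave smaller distances and the closest were genes of other kinds. The measure is not scaled to how much a gene varies, so distances to AOX1A and to OXS3 cannot be compared. Around its own mean, log2 CPM ran from -0.182 to 0.360 in AOX1A and from -2.51 to 2.37 in OXS3. FUS9, a ubiquitin-conjugating enzyme variant of light signalling, was at a distance of 0.0338, with 6.69, 7.44 and 6.81 CPM in wild type and 9.57, 8.98 and 7.21 CPM in papl1 papl2. It was highest in papl1 papl2 replicate 1 and nearly level with wild type in replicate 3, as was AOX1A. The others were TLP1, a tubby-like protein, at 0.0410, the histone family gene AT5G02570 at 0.0477, MT2A, a metallothionein, also at 0.0477, and ABCB11, an auxin transporter of the P-glycoprotein family, at 0.0499. No further member of the 9 was among the 5 nearest to OXS3 or to AOX1A. For OXS3 the measure settled this beforehand, as the other members lay only between -0.723 and 0.596 around their means. For AOX1A there were 5 places for 16794 candidate genes. Absence from these places therefore does not show that the members differ in pattern.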

How the data were processed

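Poly-A RNA of 6 libraries was measured. The authors deposited raw read counts per gene as whole numbers in a single table. Per the submitters' processing notes, TAIR10, TopHat2, HTSeq, DESeq and DESeq2 were named, with no role or order. Whether counting used strand is not given in the sources used here, and PCR without molecular identifiers means that reads are not independent molecules. Of 32678 genes, 9906 had 0 counts throughout.

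The genotypes were compared with edgeR 4.0.16 (R 4.3.3): TMM scaling, filterByExpr (minimum count 10, minimum total 15), quasi-likelihood F test of genotype over all 6 libraries and Benjamini-Hochberg adjustment over 17720 genes, called at an adjusted p under 0.05. Standard errors are the size of the log2 fold change over the square root of F. CPM values are TMM-scaled, and log2 CPM used a prior count of 2. The procedure was tested on simulated data with known answers. Alternatives were DESeq2 1.42.0, other scalings and filters, a stricter threshold, a replicate block and leaving out each library. No 2 libraries of the same genotype agreed within sampling noise.

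The members and lists were chosen with earlier results of these data known; the lists come from general knowledge, not from a published table. Named were all 9 members, every list gene past the threshold, the 2 smallest p where a list had none, the 5 nearest patterns to OXS3 and AOX1A, and the mutated loci. RCD1, AT5G14730, DIC1, MYB36, IRX3, XCP1, SOT12, UGT74E2, CYP81D8, AT2G04050, AT1G24095, NDB3, NDB4, CPN10, AOX1D, the catalases, APX1, GSTU24, GSTU25 and the genes with the motif past the threshold were added after their values were seen. Sequences and gene models were read by locus from RefSeq TAIR10.1; 766 table IDs had no match there. The promoter of OXS3 is not reported here.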

Additional observations from a re-analysis of the deposited data

How the results depend on the processing

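Over all genes the count past the threshold was 489 (396 higher). DESeq2 called 744 genes. The replicate block left 259, the stricter threshold of 0.01 left 140, and the counts were 144 to 1164 as single libraries were left out, fewest without wild type replicate 1 and most without papl1 papl2 replicate 3. Of the other pathway genes 8 passed; 4 did at the threshold of 0.01, and 4 to 14 as single libraries were left out (4 without any 1 wild type library, 5 without papl1 papl2 replicate 2, 14, with 2 lower, without papl1 papl2 replicate 3), while 6 of the 8 passed under the replicate block, which dropped WRKY15 (adjusted p = 0.0519, edgeR) and ANAC102 (adjusted p = 0.0528, edgeR). The cause of these shifts was not tested. All 9 members kept the sign of their log2 fold change and moved by less than 1 SD between replicates in 12 alternatives. Leaving out 1 of 3 libraries can hardly move an estimate by that much, and the other alternatives reuse the same libraries. That bound therefore says little about stability. As single libraries were left out, NDB2 ran from -0.45 to -0.10 and NDA1 from -0.49 to -0.08. The replicate numbers gave no sign of pairing libraries across genotypes: the correlations of same-numbered deviations were -0.00913, -0.0601 and -0.107. Depth limits OXS3 in wild type (8 to 24 counts), NDA1 and UPOX most.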
